A study of Mus musculus with 6 samples.

Results

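The genes described here are 7 core members of the vascular endothelial growth factor (VEGF) and angiopoietin pathways, taken by gene symbol from the 12436 genes of each deposited table. They are the ligands *Vegfa*, *Angpt1* and *Angpt2* and the receptors *Kdr* (VEGF receptor 2), *Flt1* (VEGF receptor 1), *Tek* (Tie2) and *Tie1*, and all 7 were found. They were measured in single cells of the tibialis anterior muscle of male mice aged 3 to 5 months, which all carried the Gt(ROSA)26Sor<tm1(Fucci2aR)Jkn allele, a cell cycle reporter, on a B6;129 background. According to the study's methods, the reporter is switched on by Cre in *Pax7* cells, and Cre-negative mice were used for sequencing. Mice ate either a control diet or a hypothyroid diet, low in iodine and with 0.15% propylthiouracil (PTU), an inhibitor of thyroid hormone synthesis. Muscle was taken without injury (day 0) or 5 or 14 days after injection of cardiotoxin at 50 µg/ml (5 and 14 dpi), and each of the 6 combinations of diet and day is 1 library of muscle pooled from 3 mice.

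With 1 library per condition there was no replicate, so no diet difference was tested on any day and no p-value is given. A fit of diet across the 3 days, with the days taken as replicates, was not made. Every interval below is an exact 95% interval that covers the error of counting molecules only, not differences between mice. Levels are unique molecular identifiers (UMIs) summed over the cells of a class in a library and scaled to 1000000 UMIs of that pool (CPM). Molecules were read at the 3′ end, so splice forms such as soluble *Flt1* were not told apart. The libraries held 528 to 3294 cells with 2283954 to 23497545 UMIs and a median of 3634 to 8055 UMIs per cell, and 12 barcodes occurred in more than 1 library, none of them with the same counts. Only the first run of alphabetically ordered columns of each table was used, because 1680 cells stood in more than 1 table. Of the cells used, 1152 of the 1650 at hypothyroid 14 dpi also stood in the later columns of the control day 0 table, and 528 of the 2428 at control 5 dpi in those of the hypothyroid day 0 table. Each was counted under the table whose first run holds it, and values without these shared cells are given where they change a call. No cell stood in more than 1 first run. The files do not show whether the first run, the later columns or both belong to the condition of the label, and every ratio below rests on the first run, so values with all columns are given beside the main ratios. In FAPs of the control day 0 table, for example, *Vegfa* stood at 294 CPM in the first run and at 1074 CPM in the second, with both clustered together.

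VEGF-A is a secreted growth factor that acts on endothelial cells through KDR, which carries most of its growth signal, while FLT1 binds VEGF-A tightly and signals weakly, so that it often acts as a sink. Angiopoietin-1, made by stromal and perivascular cells, activates the receptor TEK and keeps vessels quiet and tight. Angiopoietin-2 is stored and released by endothelial cells themselves, can oppose angiopoietin-1, and is known from vessels that are being remodelled. TIE1 is a related receptor that modulates TEK. Skeletal muscle is rich in capillaries, which have to be rebuilt after cardiotoxin injury.

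The tables placed *Tek* at chr4:94627526-94763214, *Tie1* at chr4:118328388-118347259, *Kdr* at chr5:76093487-76139119 and *Flt1* at chr5:147498414-147662822 of the mouse build mm39. The ligand genes lay at chr17:46327919-46343296 (*Vegfa*), chr15:42288119-42540374 (*Angpt1*) and chr8:18740279-18791579 (*Angpt2*), and all 7 were annotated as protein coding. The promoters of the 4 receptors are shown because these genes shared 1 cell class, as described below. The sequences are the 250 bases before the annotated start, from NCBI RefSeq on the older build GRCm38.p6, so their positions differ from those above. Capitals mark AGGAAG or CGGAAG on either strand, letters found in binding sites of ETS factors, a family known to act on endothelial genes.
*Tek*, chr4:94739039-94739288, plus strand: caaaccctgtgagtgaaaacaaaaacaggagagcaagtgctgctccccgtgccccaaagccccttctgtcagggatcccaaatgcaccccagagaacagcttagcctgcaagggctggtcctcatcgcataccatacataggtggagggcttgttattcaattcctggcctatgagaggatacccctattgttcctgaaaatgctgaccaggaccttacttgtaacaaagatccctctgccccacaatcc
*Tie1*, chr4:118489850-118490099, minus strand: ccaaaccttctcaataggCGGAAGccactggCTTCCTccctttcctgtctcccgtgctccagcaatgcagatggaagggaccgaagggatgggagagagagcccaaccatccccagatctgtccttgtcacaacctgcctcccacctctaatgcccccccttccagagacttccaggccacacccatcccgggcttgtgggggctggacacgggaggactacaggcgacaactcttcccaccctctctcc
*Kdr*, chr5:75978456-75978705, minus strand: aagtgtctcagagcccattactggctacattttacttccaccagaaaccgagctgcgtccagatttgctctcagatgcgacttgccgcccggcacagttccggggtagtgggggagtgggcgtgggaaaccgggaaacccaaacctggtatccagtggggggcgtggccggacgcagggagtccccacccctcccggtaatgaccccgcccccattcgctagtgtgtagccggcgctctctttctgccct
*Flt1*, chr5:147726012-147726261, minus strand: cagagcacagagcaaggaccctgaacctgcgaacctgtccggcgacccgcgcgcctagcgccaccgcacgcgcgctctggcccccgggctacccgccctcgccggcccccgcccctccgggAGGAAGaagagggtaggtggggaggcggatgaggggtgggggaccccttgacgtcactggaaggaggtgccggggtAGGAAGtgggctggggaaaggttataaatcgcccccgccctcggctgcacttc

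These letters occurred 2 times each before the starts of *Tie1* and *Flt1* and were not in the windows of *Kdr* and *Tek*, and 39.2% of the 32851 promoters in the RefSeq table held them in a window of the same length. The *Tie1* matches lay 232 and 219 bases and the *Flt1* matches 129 and 53 bases before the start. Such a match is a description of the letters, not a shown binding site. For *Vegfa* the table gives 2 starts, and here capitals mark ACGTG or GCGTG on either strand, the core of sites bound by hypoxia-inducible factors, which 38.6% of promoters held.
*Vegfa* (upstream start), chr17:46032378-46032627, minus strand: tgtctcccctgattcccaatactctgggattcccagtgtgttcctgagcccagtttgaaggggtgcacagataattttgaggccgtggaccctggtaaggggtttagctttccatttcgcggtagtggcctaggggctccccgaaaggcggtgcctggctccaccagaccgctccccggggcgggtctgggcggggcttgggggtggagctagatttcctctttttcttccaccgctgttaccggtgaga
*Vegfa* (downstream start), chr17:46025164-46025413, minus strand: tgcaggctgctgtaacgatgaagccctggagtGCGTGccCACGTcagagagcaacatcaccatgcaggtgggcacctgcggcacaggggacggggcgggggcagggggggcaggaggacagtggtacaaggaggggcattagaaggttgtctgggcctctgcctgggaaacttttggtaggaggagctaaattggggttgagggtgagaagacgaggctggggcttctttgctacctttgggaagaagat

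The upstream *Vegfa* window held no such match and the downstream window held 2, 218 and 211 bases before its start. By its position the downstream window lies inside the gene as read from the upstream start. Whether its matches lie in an exon was not examined, so they are not shown to be promoter sites. *Angpt1* and *Angpt2* had no entry.

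Cells were clustered without the 7 genes and without the related pathway and hypoxia genes named below, and clusters were named from marker genes, so that the classes are "-like" classes, a suffix left out from here on. *Figf*, *Kcne3* and *Vash1* of the lists were not analysed here. Of 11207 cells, 4678 were fibro-adipogenic progenitors (FAPs), the connective tissue cells of muscle, and 1425 were endothelial. The others were 1415 lymphoid, 1144 monocyte/macrophage, 549 myogenic progenitor, 331 tenocyte, 286 myocyte, 252 mural and 152 glial cells, and 975 stayed unnamed. The endothelial class held 103, 138 and 829 cells in the control libraries of day 0, 5 dpi and 14 dpi and 29, 37 and 289 in the hypothyroid ones. All 8 endothelial markers were detected in it in each of the 6 libraries. No doublets were removed, and some endothelial subclusters also carried FAP or mural markers. The summed level of 8 FAP markers in the endothelial class ran from 80.2 CPM (hypothyroid day 0, with 5 of the 8 at 0) to 3862 CPM (control 14 dpi). That of 8 myocyte markers was 5559 CPM in control and 14023 CPM in hypothyroid endothelial cells at day 0, 629 and 145 CPM at 5 dpi, and 8579 and 2692 CPM at 14 dpi, with at most 2 of the 8 at 0. Monocyte/macrophage markers were at 0 in both libraries of day 0 and at 28.4 and 428 CPM at 5 dpi. The part of these markers in the results was not tested.

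Among the named classes, the 4 receptors and *Angpt2* were detected most often in endothelial cells, and *Vegfa* and *Angpt1* in FAPs. Unnamed clusters, 23.1% of the cells at control 5 dpi, held 16.3% of the *Kdr* UMIs of that library. Their shares there were 3.74% for *Flt1*, 1.69% for *Tie1* and 0.917% for *Tek*. At hypothyroid 5 dpi they held 10.3% of the *Kdr* UMIs, and in the other libraries at most 0.990%. *Flt1* was detected in 84.6% of endothelial cells, *Kdr* in 68.8%, *Tie1* in 49.9% and *Tek* in 37.8%. In lymphoid cells, which should lack these receptors and so gauge free RNA, the shares were 0.707%, 0.424%, 0.141% and 0.0707%, at a median of 2822 UMIs per cell against 2503 in endothelial cells. The receptor shares of endothelial cells therefore stood above this background. After each cell was thinned to 1000 UMIs, the endothelial shares were 66.2% for *Flt1*, 44.0% for *Kdr*, 20.4% for *Tie1* and 14.3% for *Tek*. *Angpt2* was detected in 22.0% of endothelial cells before and in 9.27% after thinning, against 0.495% of lymphoid cells before it. *Vegfa* was detected in 60.8% of FAPs and 53.0% of myogenic progenitors, and *Angpt1* in 13.9% of FAPs and 10.6% of tenocytes. *Vegfa* was also detected in 23.7% of lymphoid cells, at 109 CPM, so levels near that value in other classes are not told apart from it. After thinning, *Angpt1* was in 3.19% of tenocytes and 2.84% of FAPs, while the leading class of the other 6 genes was the same as before.

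**Figure D1:**
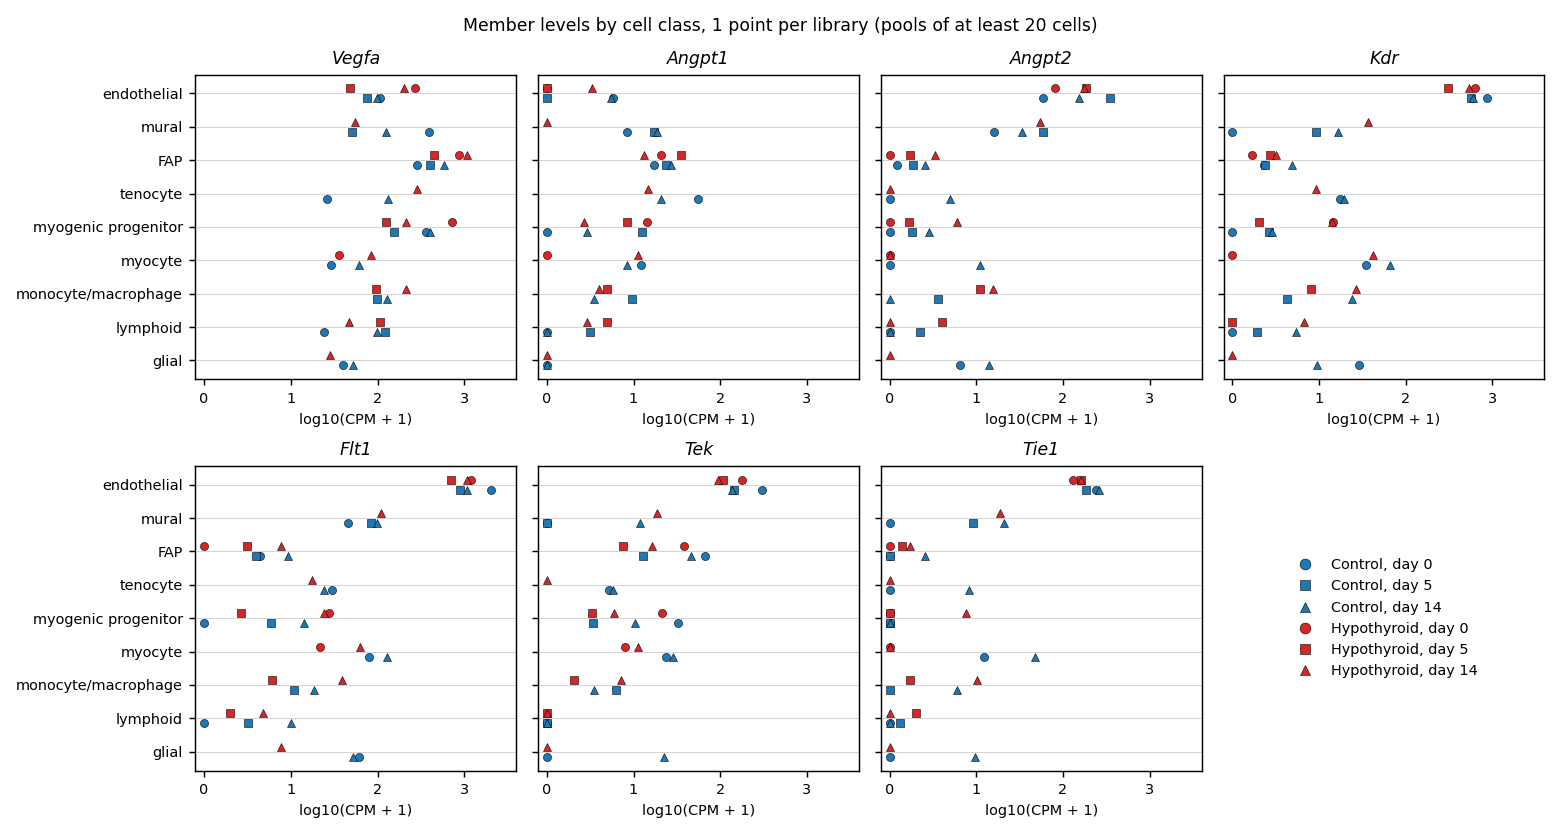
Level of each of the 7 genes, as log10(CPM + 1) on the x axis, in 9 cell classes, with 1 point per library for pools of at least 20 cells (colour: diet; symbol: day). *Kdr*, *Flt1*, *Tek* and *Tie1* are highest in endothelial cells in each library, whereas *Vegfa* and *Angpt1* spread over FAPs and other classes.

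FAPs held most *Vegfa* molecules of each library. Their share of the *Vegfa* UMIs was 85.7%, 71.0% and 83.3% in controls at day 0, 5 dpi and 14 dpi, and 85.0%, 83.8% and 89.5% in hypothyroid libraries. Other classes held less: at control 5 dpi, lymphoid cells held 12.1% and myogenic progenitors 5.82%, and at hypothyroid 5 dpi monocytes/macrophages held 8.06%. Lymphoid cells were 36.4% of the cells at control 5 dpi, and their *Vegfa* UMIs were not told apart from free RNA. FAPs also led for *Angpt1*, with 79.3%, 77.7% and 78.4% of its UMIs in controls and 78.4%, 89.2% and 85.5% in hypothyroid libraries. *Angpt2* came from endothelial cells for 70.6%, 92.5% and 92.9% of its UMIs in controls over the 3 days. In hypothyroid muscle that share was 71.4%, 42.5% and 87.3%, and at 5 dpi monocytes/macrophages held 44.9% of 127 *Angpt2* UMIs. They were 28.5% of the cells of that library and also held 23.0% of its *Kdr*, 10.6% of its *Flt1*, 7.02% of its *Tie1* and 4.72% of its *Tek* UMIs. In those cells *Angpt2* stood at 2.66 CPM with the control diet and at 10.1 CPM with the hypothyroid diet (4 and 45 cells with a UMI), a ratio of 3.80 (1.40 to 14.4), and 9.05% of genes were at least 1.5-fold higher. The counts at day 0 were low, with 17 *Angpt2* UMIs in the control and 7 in the hypothyroid library. Over all cells there were 0.185, 2.17 and 2.04 *Angpt2* UMIs per *Angpt1* UMI in control muscle over the 3 days. The hypothyroid values were 0.189, 0.268 and 2.97, so that the diets stood furthest apart at 5 dpi. These whole-muscle ratios also follow how many cells of each class were captured: endothelial cells were 5.68% of the control and 1.72% of the hypothyroid library at 5 dpi.

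In the first-run cells, *Vegfa* in FAPs was higher in hypothyroid than in control libraries at day 0 and 14 dpi and close to control at 5 dpi. Its level in control FAPs was 286, 403 and 582 CPM over the 3 days. In hypothyroid FAPs it was 858, 448 and 1069 CPM. Control day 0 was thus the lowest and hypothyroid 14 dpi the highest of the 6 libraries. The ratio of hypothyroid to control was 3.00 (2.77 to 3.25) at day 0, 1.11 (1.06 to 1.17) at 5 dpi and 1.84 (1.77 to 1.90) at 14 dpi, each with its 95% interval. The medians over all genes tested, those with at least 50 UMIs in the pair of pools, were 0.999, 0.795 and 0.945. A ratio of at least 1.5, the limit used throughout, was reached by 8.6% of 7963 genes at day 0 and by 3.67% of 10109 genes at 14 dpi. Between days, *Vegfa* in hypothyroid FAPs was 0.523 times from day 0 to 5 dpi and then 2.38 times to 14 dpi, past the limit both times. In controls the same steps were 1.41-fold and 1.44-fold, within it. Changes past the limit between days were common in FAPs, at 53.9% and 46.5% of genes in controls and 60.3% and 51.2% in hypothyroid libraries.

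The difference at day 0 lay in the FAPs with most *Vegfa*. The median FAP had 119 CPM in the control and 108 CPM in the hypothyroid library, whereas the 90th percentile was 672 and 1601 CPM. At 14 dpi both moved, with medians of 174 and 459 CPM and 90th percentiles of 1370.4 and 2840.3 CPM. The share of FAPs with a *Vegfa* UMI at 1000 UMIs per cell was 19.7% and 28.8% at day 0, 22.1% and 24.0% at 5 dpi, and 29.2% and 41.7% at 14 dpi, control first. Without thinning, the shares at day 0 were 54.4% and 50.8%, in the opposite order to the CPM, at a median of 5588 and 4242 UMIs per FAP. On thinned counts the *Vegfa* ratios were 2.30, 1.26 and 2.22 over the 3 days. With all columns of the tables the ratios were 0.810, 0.976 and 1.45, so that the day 0 difference turned its direction and that at 14 dpi fell inside the limit. With all columns, however, the control day 0 pool also takes in cells that the hypothyroid 14 dpi pool counts. Without the shared cells the ratio at 14 dpi was 1.84.

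FAPs fell into 7 clusters, and *Vegfa* and *Angpt1* were high in different ones. *Vegfa* stood between 659 and 1215 CPM in 4 clusters led by genes such as *Cxcl5*, *Csf2*, *Gfpt2* and *Mmp3*, and between 58.1 and 127 CPM in the other 3. *Angpt1*, by contrast, was at 72.1 CPM in the cluster led by *Smoc2* and *Lum* and at 48.3 CPM in the cluster led by *Postn* and *Cthrc1*, against 2.69 to 17.3 CPM in the other 5. The *Smoc2* cluster held 72.6% and 69.0% of the FAP *Angpt1* UMIs of the control and hypothyroid library at day 0, and the *Postn* cluster 82.9% and 62.4% at 5 dpi. The *Gsn* and *Gfpt2* cluster held 90.1% and 95.1% of the FAP *Vegfa* UMIs at day 0. Within it the level was 351 CPM in the control and 1184 CPM in the hypothyroid library, a ratio of 3.37 (3.10 to 3.66), against 1.28 (0.865 to 1.88) in the *Smoc2* cluster.

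At 14 dpi *Vegfa* differed less than over all FAPs within the 2 clusters that held most of its UMIs. In the cluster led by *Mmp3* and *Cxcl5* it was at 997 CPM in the control and 1346 CPM in the hypothyroid library, a ratio of 1.35 (1.29 to 1.42). In the *Cxcl5* and *Csf2* cluster with *Ptx3* it was at 584 and 829 CPM, a ratio of 1.42 (1.33 to 1.51). In the *Gsn* and *Gfpt2* cluster it was at 594 and 1433 CPM, a ratio of 2.41 (2.02 to 2.89), and this cluster held 2.85% and 9.88% of the FAP *Vegfa* UMIs. In the *Smoc2* cluster the ratio was 0.475 (0.298 to 0.729). The *Mmp3* cluster made up 23.1% of control and 46.2% of hypothyroid FAPs on that day. With the clusters weighted as in the control library, the *Vegfa* ratio of all FAPs was 3.19 at day 0, 0.901 at 5 dpi and 1.39 at 14 dpi, the last below the limit. *Ccl2*, a monocyte chemokine chosen after its values were seen, was lower with the hypothyroid diet at day 0 (10096 CPM in control FAPs, 5942 CPM in hypothyroid FAPs) and higher at 14 dpi (9741 and 17453 CPM). *Ptgs2*, which makes prostaglandins and was chosen in the same way, stood at 1992 and 1729 CPM at day 0 and at 2498 and 2515 CPM at 14 dpi. Their part in the *Vegfa* difference was not tested.

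**Figure D2:**
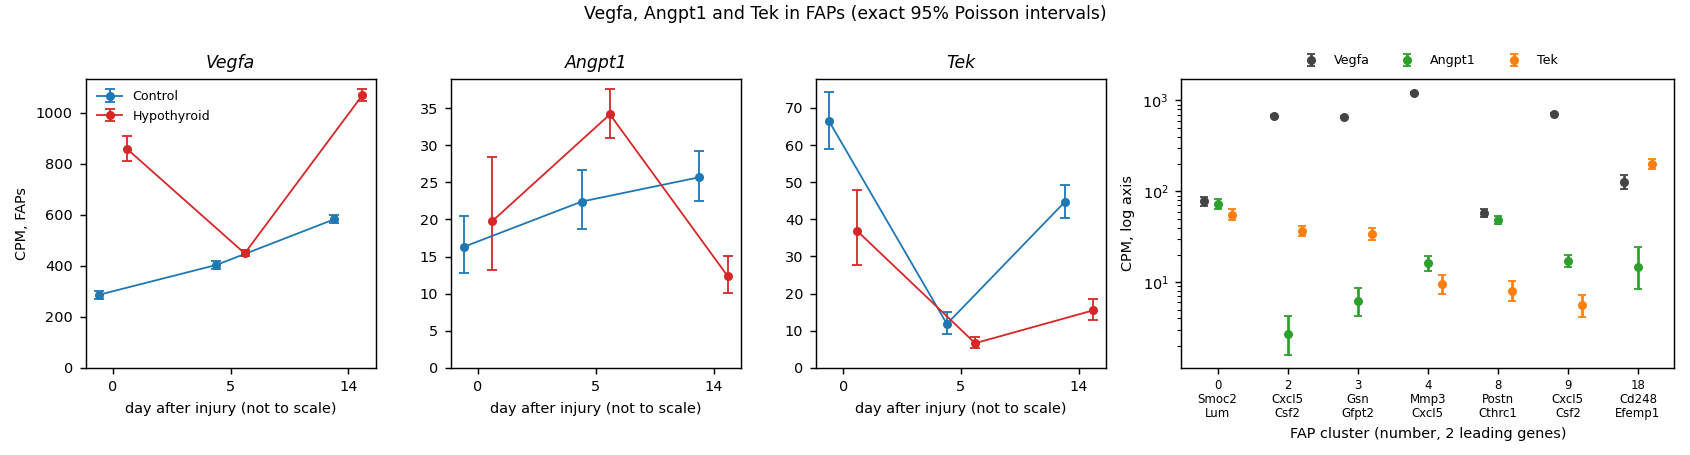
The first 3 panels plot the CPM of *Vegfa*, *Angpt1* and *Tek* in FAPs against the day after injury, with 1 library per point (blue: control; red: hypothyroid) and exact 95% Poisson intervals. The last panel plots the 3 genes in the 7 FAP clusters with the 6 libraries pooled, on a log axis: *Vegfa* is at 659 CPM or more in 4 clusters, while *Angpt1* is highest in the *Smoc2* cluster and *Tek* in the *Cd248* cluster.

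The other possible *Vegfa* senders differed by class. In myogenic progenitors, the stem and precursor cells of muscle fibres, *Vegfa* was at 360.3, 154 and 399 CPM in controls over the 3 days and at 721, 124 and 212 CPM in hypothyroid libraries. The ratio was 2.002 (1.44 to 2.81) at day 0, 0.802 (0.671 to 0.961) at 5 dpi and 0.531 (0.423 to 0.664) at 14 dpi, where 9.46% of genes were at least 1.5-fold higher at day 0 and 14.3% at least 1.5-fold lower at 14 dpi. The last value became 1.09 when each cell was thinned to 1000 UMIs. In tenocytes at 14 dpi *Vegfa* was at 132 CPM in the control and 284 CPM in the hypothyroid library, a ratio of 2.16 (1.67 to 2.77), and 15.2% of genes were past the limit upwards. In monocytes/macrophages at 5 dpi the control level was 98.5 CPM and the hypothyroid level 94.7 CPM (ratio 0.962 (0.800 to 1.16)). Their levels at 14 dpi were 126 and 209.6 CPM (ratio 1.66 (1.22 to 2.29)), with 16.3% of genes at least 1.5-fold higher, and the ratio was 1.23 without the shared cells. In mural cells, the pericytes and smooth muscle cells of vessels, the ratio at 14 dpi was 0.429 (0.0858 to 1.32), from 3 hypothyroid and 57 control UMIs, with 35.7% of genes at least 1.5-fold lower.

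In endothelial cells themselves *Vegfa* at 14 dpi was at 96.9 CPM in the control and 199 CPM in the hypothyroid library, a ratio of 2.06 (1.77 to 2.39), where 5.3% of 8580 genes were at least 1.5-fold higher. Of the 344 hypothyroid UMIs, however, 194 came from the subclusters with FAP markers. The ratio was 1.09 (0.623 to 1.86) without the mixed subclusters and 0.928 without cells of over 2 times the median UMIs, but 3.40 without the shared cells.

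*Angpt1*, the activating ligand of TEK, was low in all FAP pools and lay on opposite sides of control at 5 and 14 dpi. In control FAPs it was at 16.3, 22.4 and 25.7 CPM over the 3 days. In hypothyroid FAPs it was at 19.8, 34.2 and 12.4 CPM, with the highest of the 6 values at 5 dpi and the lowest at 14 dpi. The ratios were 1.21 (0.759 to 1.89), 1.52 (1.25 to 1.87) and 0.481 (0.376 to 0.611). Of the genes tested in FAPs, 6.75% were at least 1.5-fold higher at 5 dpi and 14.5% at least 1.5-fold lower at 14 dpi. At 5 dpi *Angpt1* was higher in both clusters of that day, at 34.7 and 57.5 CPM in the *Postn* cluster and at 8.26 and 20.3 CPM in the *Cxcl5* and *Cthrc1* cluster. At 14 dpi it was at 27.9 and 10.1 CPM in the *Mmp3* cluster, a ratio of 0.362 (0.241 to 0.538). In the *Smoc2* cluster the ratio was 0.754 (0.523 to 1.07), an interval that includes 1. The ratio at 14 dpi was 0.558 with clusters weighted as in the control and 0.678 on thinned counts, which is inside the limit. With all columns the ratios were 1.54, 1.24 and 0.684 over the 3 days, the last 2 inside the limit. Without the shared cells the ratio at 14 dpi was 0.567.

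*Angpt2* in endothelial cells was higher in injured than in intact control muscle. In control endothelial cells it was at 57.5 CPM at day 0 (12 UMIs), 351 CPM at 5 dpi (334 UMIs) and 152 CPM at 14 dpi (551 UMIs). In hypothyroid endothelial cells it was at 80.2 CPM (5 UMIs), 182 CPM (54 UMIs) and 175 CPM (303 UMIs). The control course thus had its highest value at 5 dpi, and the hypothyroid values of 5 and 14 dpi lay close together. From day 0 to 5 dpi the ratio was 6.10 (3.45 to 11.9) in controls and 2.27 (0.915 to 7.27) in hypothyroid libraries, with 51.6% and 54.7% of genes past 1.5-fold either way. From 5 to 14 dpi it was 0.434 (0.379 to 0.499) in controls and 0.964 (0.719 to 1.31) in hypothyroid libraries, with 34.8% and 35.8% of genes past the limit. Between diets the ratio at 5 dpi was 0.519 (0.382 to 0.693), where 23.4% of 3967 genes were at least 1.5-fold lower and the median ratio was 0.891. At 14 dpi it was 1.15 (0.997 to 1.33), and 0.872 without the shared cells. The hypothyroid 5 dpi pool rests on 37 cells. With all columns the diet ratio at 5 dpi was 1.31, and the control ratio from day 0 to 5 dpi was 1.24, inside the limit.

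*Kdr*, the main signalling receptor for VEGF-A, was lower in hypothyroid than in control endothelial cells at 5 dpi and within 1.5-fold of control on the other days. In controls its level was 858, 573 and 603 CPM over the 3 days. In hypothyroid libraries it was 626, 310.1 and 541 CPM, below the control of the same day each time. The diet ratios were 0.729 (0.502 to 1.04), 0.542 (0.429 to 0.677) and 0.898 (0.831 to 0.970). *Flt1*, the VEGF-binding receptor with weak signalling, was at 2061, 887 and 1074 CPM in controls and at 1187, 701 and 1085 CPM in hypothyroid libraries. Its ratios were 0.576 (0.444 to 0.739), 0.791 (0.676 to 0.921) and 1.01 (0.955 to 1.07), so that only day 0 was past the limit. At day 0, 23.1% of the 962 genes tested were at least 1.5-fold lower, so ratios of this size were common there. Endothelial cells held 2.40, 1.55 and 1.78 *Flt1* UMIs per *Kdr* UMI in controls over the 3 days and 1.90, 2.26 and 2.004 in hypothyroid libraries. The intervals of the diets were separate at 5 dpi (1.39 to 1.73 and 1.76 to 2.92) and overlapped on the other days.

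*Tie1* and *Tek*, the angiopoietin receptors, were both lower in hypothyroid endothelial cells at 14 dpi, *Tie1* past the limit and *Tek* just inside it. *Tie1* was at 239.6, 182 and 257 CPM in controls over the 3 days and at 128, 158 and 159 CPM in hypothyroid libraries. Its diet ratio was 0.536 (0.219 to 1.14) at day 0, from 8 UMIs in the hypothyroid pool, 0.872 (0.617 to 1.21) at 5 dpi and 0.616 (0.537 to 0.706) at 14 dpi. At 14 dpi 10.9% of genes were at least 1.5-fold lower, with a median ratio of 0.986. *Tek* was at 302, 144 and 136 CPM in controls and at 176, 108 and 93.8 CPM in hypothyroid libraries, lower on each day. Its ratios were 0.585 (0.278 to 1.12), 0.749 (0.493 to 1.11) and 0.690 (0.574 to 0.826). At 14 dpi the *Tie1* ratio was 0.639 without the mixed subclusters and 0.638 in capillary cells alone, and the *Tek* ratio 0.712 and 0.734.

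Of the endothelial genes *Kdr*, *Flt1*, *Tek*, *Tie1* and *Angpt2*, 3 of the 4 tested at day 0, 2 of 5 at 5 dpi and 1 of 5 at 14 dpi were at least 1.5-fold lower in hypothyroid libraries, and none was as far above. Over all genes tested, the shares given above were 23.1%, 23.4% and 10.9%. With all columns the *Tie1* ratio at 14 dpi was 0.706, inside the limit, and the *Kdr* ratio at 5 dpi was 0.652, past it. *Angpt2* had fewer than 50 UMIs at day 0 and was not counted there. In place of clusters, cells of any class with at least 3 UMIs of the 8 endothelial markers were also taken. With these, all 5 genes were past the limit at 5 dpi, with ratios of 0.150 to 0.295, and 2 of 5 at 14 dpi. This choice was not corrected for depth. The median cell at 5 dpi had 3847 UMIs in the control and 8055 in the hypothyroid library. Cells of other classes can thus enter it, and their part in these ratios was not tested. The share over all genes was not computed for this choice of cells. Between days, *Flt1* and *Tek* in controls were 0.430 and 0.477 times at 5 dpi relative to day 0, and *Kdr* was 0.668 times. In hypothyroid libraries *Kdr* and *Flt1* were 0.496 and 0.591 times over the same step. From 5 to 14 dpi they were then higher by 1.75-fold (1.41 to 2.19) and 1.55-fold (1.34 to 1.79), against 1.05-fold and 1.21-fold in controls, and the *Flt1* step was 1.45-fold without the shared cells. Whether these steps differ between diets was not tested.

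**Figure D3:**
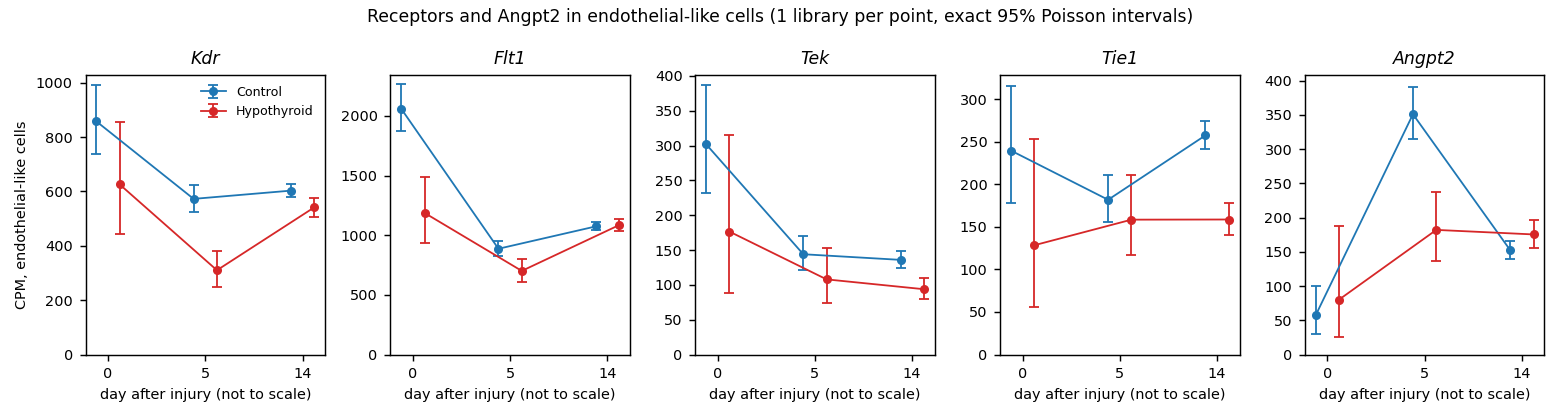
CPM of *Kdr*, *Flt1*, *Tek*, *Tie1* and *Angpt2* in endothelial cells against the day after injury, with 1 library per point (blue: control; red: hypothyroid) and exact 95% Poisson intervals. The control *Angpt2* point at 5 dpi (351 CPM) is the highest of its 6, and the *Tie1* points of the diets lie apart at 14 dpi (257 and 159 CPM).

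**Figure D4:**
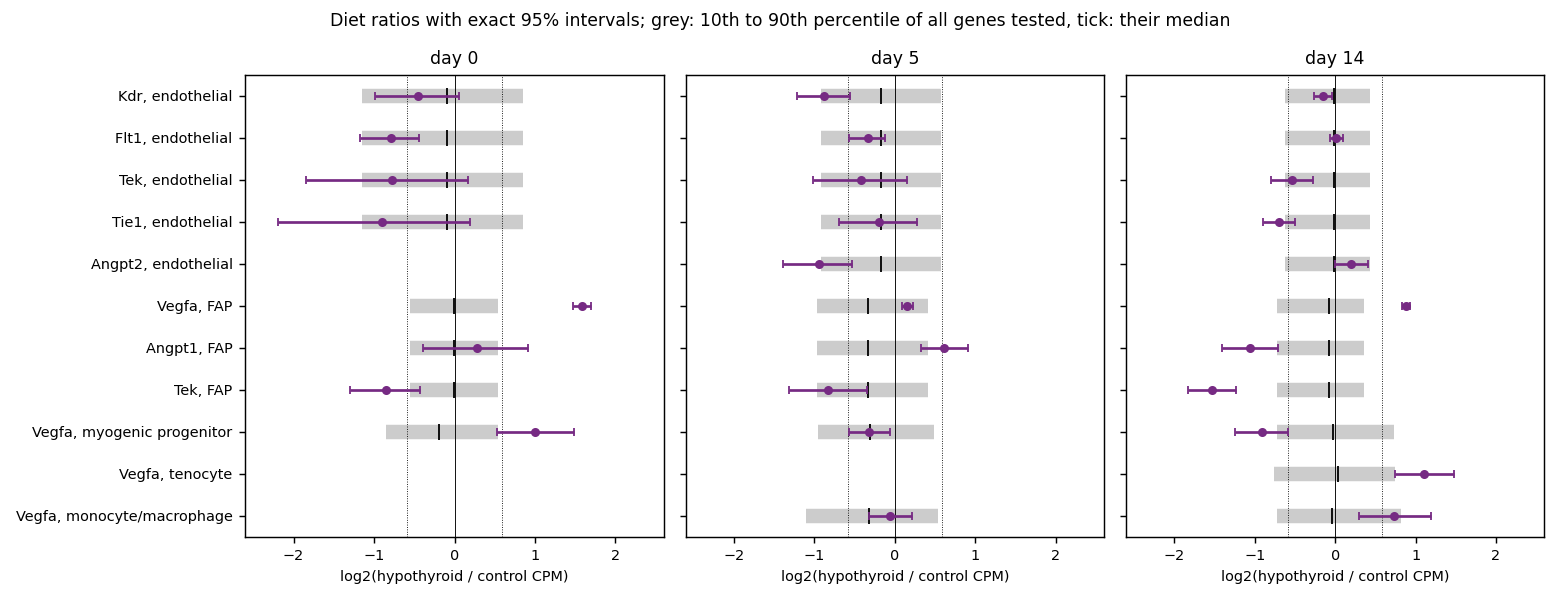
Ratio of hypothyroid to control CPM on a log2 scale, by day, for the endothelial genes, for *Vegfa*, *Angpt1* and *Tek* in FAPs and for *Vegfa* in other classes. Points have exact 95% intervals, grey bars span the 10th to 90th percentile of all genes tested in that pair of pools, ticks are their medians and dotted lines mark 1.5-fold. In FAPs *Vegfa* lies above the grey bar and *Tek* below it at day 0 and 14 dpi.

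Endothelial subtypes differed in their receptors. With the 6 libraries pooled, capillary subclusters held 802 cells, arterial 88, venous 48, lymphatic 22, mixed with FAP markers 234 and mixed with mural markers 231. *Kdr* was at 848 CPM (814 to 882) in capillary cells, above the 319 CPM of venous, 304 CPM of lymphatic and 274 CPM of arterial cells, whose intervals overlap. *Flt1* was at 1729.8 CPM in arterial, 1403 in capillary and 1178 CPM in venous cells, and 1 UMI was found in lymphatic cells. *Angpt2* was at 258 CPM in capillary and 252 CPM in lymphatic cells, against 4 UMIs in arterial and 1 UMI in venous cells. The capillary value was uneven: *Angpt2* was at 392 CPM in 1 capillary subcluster of 266 cells, with a median of 4870 UMIs. In the other capillary subclusters, of 262, 238 and 36 cells, it was at 46.5, 58.3 and 127 CPM. *Tek* was at 349.6 CPM in venous and 319 CPM in arterial cells, above the 175 CPM of capillary and 59.3 CPM of lymphatic cells. *Tie1* ran from 287 CPM in capillary to 422 CPM in lymphatic cells.

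In capillary cells alone, *Angpt2* was at 98.0, 463 and 189 CPM in controls and at 111, 268 and 225 CPM in hypothyroid libraries over the 3 days, again highest at control 5 dpi. *Kdr* there was at 1924, 733 and 937 CPM in controls and at 643, 437 and 759 CPM in hypothyroid libraries. The diet ratio of *Kdr* in capillary cells was 0.334 (0.217 to 0.499) at day 0, on 61 control and 20 hypothyroid cells, 0.596 (0.461 to 0.762) at 5 dpi and 0.810 (0.726 to 0.902) at 14 dpi. Of the day 0 cells, 8 control and 6 hypothyroid ones lay in a deep capillary subcluster with *Kdr* at 552.5 CPM over all libraries. Another capillary subcluster, at 1409.5 CPM, held 44 and 12. The part of this make-up in the ratio was not tested. Arterial cells, where *Kdr* is low, were 21.4% of control and 6.90% of hypothyroid endothelial cells at day 0.

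**Figure D5:**
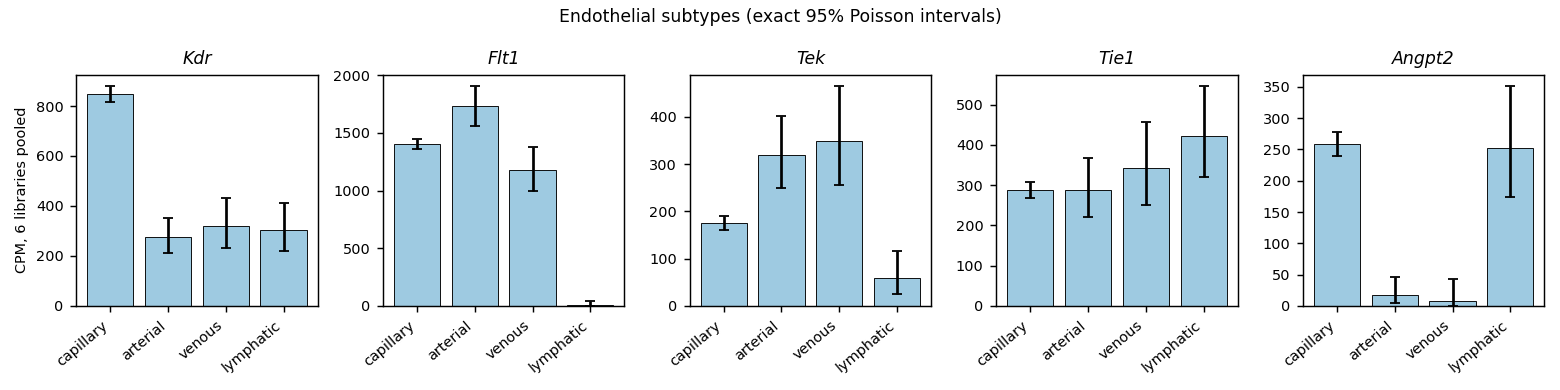
Bars show the CPM of the 4 receptors and *Angpt2* in capillary, arterial, venous and lymphatic endothelial cells, with the 6 libraries pooled and exact 95% Poisson intervals. *Kdr* is highest in capillary cells (848 CPM), *Flt1* is near 0 in lymphatic cells, and *Angpt2* is low in arterial and venous cells.

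*Tek* was also found in FAPs, in contrast to the other receptors. It was detected in 15.8% of FAPs, against 1.71% for *Kdr*, 2.50% for *Flt1* and 0.492% for *Tie1*, and in 0.0707% of lymphoid cells. FAPs had a median of 7077.5 UMIs per cell, and at 1000 UMIs per cell the share of FAPs with *Tek* was 3.90%. In control FAPs *Tek* was at 66.4, 11.8 and 44.6 CPM over the 3 days. In hypothyroid FAPs it was at 36.8, 6.62 and 15.5 CPM, the lower value on each day. The diet ratios were 0.554 (0.407 to 0.743), 0.561 (0.402 to 0.785) and 0.346 (0.281 to 0.424), where 8.93%, 30.3% and 14.5% of genes were at least 1.5-fold lower. At 14 dpi *Tek* was at percentile 1.53 of the ratios of all genes tested, and at 5 dpi at percentile 15.1. From day 0 to 5 dpi it was 0.178 (0.135 to 0.232) times in controls and 0.180 (0.126 to 0.259) times in hypothyroid libraries, and to 14 dpi 3.78 and 2.33 times. The diet ratio at 5 dpi was 0.705 after division by the median of all genes and 0.731 at doubled clustering resolution, both inside the limit. With all columns the diet ratios were 0.672, 0.333 and 0.418, the first just inside the limit, and that at 14 dpi was 0.308 without the shared cells.

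*Tek* was highest in 1 FAP cluster, the one led by *Cd248* and *Efemp1* with *Pi16*, a marker of progenitor-type fibroblasts, among its leading genes. Its level there was 201 CPM (175 to 229), above the 5.59 to 55.6 CPM of the other 6 clusters. Within it *Tek* was at 246 CPM in the control and 125 CPM in the hypothyroid library at day 0, and at 213 and 118 CPM at 14 dpi, on 20 hypothyroid cells each time. In the *Cxcl5* and *Csf2* cluster with *Ptx3* the ratio at 14 dpi was 0.479 (0.335 to 0.670), and in the *Smoc2* cluster 0.504 (0.289 to 0.836). FAPs held 78.0% of all *Tek* UMIs of the control and 72.0% of the hypothyroid library at day 0, 31.2% and 64.6% at 5 dpi, and 42.6% and 41.5% at 14 dpi.

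The other VEGF ligands differed in direction. *Pgf*, placental growth factor, a ligand of FLT1, was at 253, 10.6 and 64.2 CPM in control FAPs and at 284, 42.7 and 161 CPM in hypothyroid FAPs over the 3 days. Its diet ratio in FAPs was 1.12 (0.997 to 1.25), 4.02 (3.08 to 5.34) and 2.51 (2.28 to 2.78). In endothelial cells at 14 dpi it was at 365 CPM in the control and 689 CPM in the hypothyroid library, a ratio of 1.89 (1.75 to 2.05). At day 0 endothelial *Pgf* had 3 UMIs in the control and 64 UMIs, from 5 cells, in the hypothyroid library. Endothelial *Pgf* at 5 dpi had a ratio of 0.625. *Vegfd*, known mainly from lymphatic vessels, had a ratio of 1.57 in FAPs at day 0 and 0.505 at 5 dpi, and *Vegfc*, of the same kind, 0.343 in endothelial cells at 14 dpi. *Vegfb*, another ligand of FLT1, had a ratio of 0.574 in FAPs and of 0.587 (0.315 to 1.04) in endothelial cells at 14 dpi. Of the 4 other ligands, all tested in FAPs at 5 and 14 dpi, 1 was higher and 1 lower on each day, with median ratios of 1.32 and 1.09. Over all genes tested, 6.75% were higher and 30.3% lower at 5 dpi, and 3.67% and 14.5% at 14 dpi. A list of 4 genes is too small to set against these shares.

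Of the 4 other receptors and partners tested in endothelial cells at 14 dpi, *Nrp1*, a co-receptor for VEGF-A, was past the limit, at 469.9 CPM in the control and 290.0 CPM in the hypothyroid library (ratio 0.617). *Ptprb*, a phosphatase that acts on TEK, was at 799 and 537 CPM (0.671), *Flt4*, the lymphatic VEGF receptor, at 63.4 and 50.4 CPM (0.795), and *Nrp2* at 512 and 519 CPM (1.01). The median ratio of these 4 was 0.733, against 0.986 for all genes tested. At day 0 *Nrp1* (0.524) and *Ptprb* (0.498) were past the limit and at 5 dpi *Nrp2* (0.573), and in FAPs *Ptprb* was so at 14 dpi (0.287). Of all genes tested in endothelial cells, 23.1%, 23.4% and 10.9% were at least 1.5-fold lower at day 0, 5 dpi and 14 dpi. In FAPs at 14 dpi the share was 14.5%.

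Genes known to respond to VEGF were mostly lower in hypothyroid endothelial cells at 14 dpi. Of 5 tested, 4 were at least 1.5-fold lower, as were 10.9% of all genes, and none was higher, with a median ratio of 0.327. *Aplnr*, the apelin receptor, was at 119 CPM in the control and 22.6 CPM in the hypothyroid library, a ratio of 0.190 (0.133 to 0.264). *Plvap*, a protein of capillary pores, was at 112 and 35.3 CPM (0.316), and *Nos3*, endothelial nitric oxide synthase, at 74.7 and 42.8 CPM (0.573). *Apln*, the apelin ligand, had 64 control and 10 hypothyroid UMIs, a ratio of 0.327 (0.150 to 0.641). The ratio of *Dll4*, a Notch ligand of sprouting cells, was 0.775 (0.607 to 0.984). Venous cells were 4.10% of control and 0.692% of hypothyroid endothelial cells at 14 dpi, and arterial cells 5.43% and 2.77%. Ratios within subtypes are not given here for these genes, and the part of this make-up in their ratios was not tested. At 5 dpi 2 of 4 genes tested were at least 1.5-fold lower (23.4% of all genes), *Aplnr* (0.531) and *Dll4* (0.458), and at day 0 1 of 2 (23.1% of all genes), *Plvap* (0.407), counts too small to set against those shares. In FAPs *Apln* had a ratio of 0.239 at 5 dpi and *Plvap* of 0.232 at 14 dpi. The transcription factors *Klf2* (0.760), *Klf4* (0.726) and *Foxo1* (0.934) were within 1.5-fold in endothelial cells at 14 dpi, and *Foxo1* was past it at 5 dpi (0.562). In FAPs the *Klf2* ratios were 2.13, 0.310 and 0.504 over the 3 days, and *Klf4* had 0.506 at 14 dpi.

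Genes of the hypoxia list were counted in FAPs in the same way, and their relation to *Vegfa* was not tested. At day 0, 1 of 9 genes tested was at least 1.5-fold higher (*Bnip3*, 9.83 CPM in the control and 24.5 CPM in the hypothyroid library) and 1 lower (*Adm*, ratio 0.628), against 8.6% and 8.93% of all genes, with a median ratio of 0.975. At 14 dpi 1 of 9 was higher (*Ddit4*, ratio 1.87) and 1 lower (*Adm*, ratio 0.527), against 3.67% and 14.5%, with a median of 1.05. At 5 dpi 6 of 11 were at least 1.5-fold lower, as were 30.3% of all genes: the hypoxia factor *Epas1* (0.350), the kinase *Pdk1* (0.430), the glucose transporter *Slc2a1* (0.479), *Bnip3* (0.599), *Ddit4* (0.631) and *Adm* (0.645). The 1 that was higher was *Ankrd37* (1.78, with an interval of 0.929 to 3.70). The median at 5 dpi was 0.645, against 0.795 for all genes. In endothelial cells at 14 dpi 2 of 10 were at least 1.5-fold higher, against 5.3% of all genes, *Ddit4* (1.99) and *Adm* (1.57), with a median of 1.01. Past the limit there on other days were *Pgk1* (2.16), *Ldha* (0.558) and *Ndrg1* (0.394) at day 0 and *Slc2a1* (0.232) at 5 dpi. On those days 38.9% and 33.2% of all genes tested were past it either way.

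The genes with the pattern most like each member were sought among 11653 genes, by Pearson's r of log2(CPM + 1) over 41 pools of a class in a library with at least 20 cells. The pools share libraries and differ mainly in cell class. *Kdr* was followed by *Cdh5* (0.94), *Flt1* (0.91) and *Emcn* (0.90), and *Flt1* by *Adgrf5* (0.94), *Ptprb* (0.94) and *Fabp4* (0.93), with r in brackets. *Tie1* went with *Ccm2l* (0.92), *Dll4* (0.91) and *Emcn* (0.91), and *Angpt2* with *Tie1* (0.86), *Cd93* (0.84) and *Pcdh1* (0.84). *Tek*, found in endothelial cells and FAPs, had lower values, with *Ramp2* (0.79), *Car8* (0.77) and *Mecom* (0.76). For the FAP ligands the nearest genes were *Zfp354c* (0.77), *Ptgis* (0.77) and *Dnm3os* (0.77) for *Angpt1* and *Gars* (0.75), *Ret* (0.73) and *Gpat3* (0.72) for *Vegfa*.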

How the data were processed

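Single-cell RNA sequencing with a 3′ kit was done on 1 library for each of 2 diets and 3 days, and groups were taken from the sample labels. Per the study's methods, the authors aligned reads to mm39 with Cell Ranger, counted UMIs in Partek Flow, removed cells of extreme UMI or gene number or high mitochondrial content, and scaled each cell to CPM. Cells above the upper UMI limit given there were among those deposited. The deposited values are log2(CPM + 1) per cell. UMIs were recovered by taking the most frequent value above 0 of a cell as 1 UMI: 99.934% of 39334018 values were whole within 1%, and none of the others belonged to the 7 genes.

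The 20269 columns held 9062 outside the first run of ordered barcodes, which were used only in an alternative. The files do not show which columns belong to the condition of the label, and the cell numbers given by the study were close to 2 times the first run in each of the 6 libraries. No further cell filter was applied. Cells were clustered on 2000 variable genes, without the 7 genes and the pathway and hypoxia lists, with 20 principal components, 15 neighbours and Leiden clustering at resolution 1, a value set after looking at partitions, not at the 7 genes. Clusters were named by the list whose markers had the highest mean fold over the median cluster, given at least 3 markers raised 2-fold and found in 25% of cells. Python 3.11.15 was used with numpy 2.4.6, scipy 1.17.1, scikit-learn 1.9.0, igraph 0.11.9, leidenalg 0.10.2 and matplotlib 3.10.9.

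Pools of at least 20 cells were compared, for genes with at least 50 UMIs in a pair. Levels have exact Poisson and shares exact binomial (Clopper-Pearson) 95% intervals, and ratios the exact interval of a binomial share, and the scripts were tested on simulated data. A gene was counted as different at a ratio of at least 1.5 either way. Text names the 7 genes, the genes of the fixed lists past this limit by diet in endothelial cells or FAPs, others needed beside them, and the 3 genes most like each member. The members and lists were chosen with earlier results of these data known. Alternatives were other columns, cell weights, scaling, clustering, depth and filters.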

Additional observations from a re-analysis of the deposited data

Results flagged for a closer look

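*Vegfa* differed with diet in opposite directions between cell classes and days, past 1.5-fold and with intervals that exclude 1. The ratio of hypothyroid to control was 3.00 in FAPs and 2.002 in myogenic progenitors at day 0. At 14 dpi it was 1.84 in FAPs, 2.16 in tenocytes, 1.66 in monocytes/macrophages (1.23 without cells that stood in more than 1 table) and 2.06 in endothelial cells, but 0.531 in myogenic progenitors. The endothelial ratio was 1.09 (0.623 to 1.86) without the mixed subclusters and 0.928 without high-depth cells, and the myogenic ratio 1.09 on thinned counts. With all columns the FAP ratios were 0.810 at day 0 and 1.45 at 14 dpi. *Angpt1* in FAPs had a ratio of 1.52 at 5 dpi and 0.481 at 14 dpi, the latter 0.678 on thinned counts and 0.684 with all columns, inside the limit. *Angpt2* at 5 dpi had a ratio of 0.519 in endothelial cells (1.31 with all columns) and of 3.80 (1.40 to 14.4) in monocytes/macrophages, the latter from 57 hypothyroid and 4 control UMIs. These differences between classes and days were not tested, because each condition is 1 library.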

How the results depend on the processing

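No paired analysis was possible because the groups compared share no 2 replicate numbers, each condition being 1 library. Alternatives changed how many ratios passed 1.5-fold. For *Vegfa* and *Angpt1* in sending classes at day 0, 2 of 3 passed, against 5 with all columns, 1 with a mean over cells and 1 at doubled clustering resolution. At 5 dpi 2 of 6 passed, against 1 with ratios divided by the median, 1 at doubled resolution and 4 with a minimum of 20 UMIs. At 14 dpi 7 of 7 passed, against 3 with all columns, 3 on thinned counts and 3 of the 4 still measured without cells that stood in more than 1 table, an alternative chosen after seeing the data. Endothelial genes by diet gave 2 at 5 dpi, against 5 with cells of any class taken by 3 marker UMIs. They gave 1 at 14 dpi, against 0 with all columns and 2 by marker UMIs. Between days, controls gave 3 of 7 from day 0 to 5 dpi, against 5 each with a mean over cells, without high-depth cells, thinned, and without mixed subclusters, the last also chosen after seeing the data. From 5 to 14 dpi they gave 1, against 3 without high-depth cells and 2 each with a mean over cells, a division by the median, thinning, no mixed subclusters and no shared cells. Hypothyroid libraries gave 5 of 6 from day 0 to 5 dpi, against 0 with all columns, 1 with a mean over cells, 2 without high-depth cells, 1 thinned and 3 without mixed subclusters. Thinning left too few endothelial cells for a value at day 0.

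Ratios on the other side of 1 with all columns were *Vegfa* in FAPs at day 0 (0.810), endothelial *Angpt2* (1.31) and *Vegfa* (1.31) at 5 dpi, and endothelial *Angpt2* from day 0 to 5 dpi in hypothyroid libraries (0.979). All 1152 later columns of the control day 0 table and all 528 of the hypothyroid day 0 table are copies of cells in the first run of another table. Values with all columns thus count these cells under both conditions. No label states which condition the later columns belong to. Some later runs had member levels close to the first run of another condition. In FAPs, *Vegfa*, *Angpt1* and *Tek* stood at 1124, 12.1 and 15.4 CPM in the last run of control 14 dpi. The first run of hypothyroid 14 dpi had 1080, 12.6 and 15.4 CPM, and that of control 14 dpi 583, 25.6 and 44.5 CPM. Values with all columns may thus mix conditions on the injured days too, which was not tested. Endothelial *Angpt2* from day 0 to 5 dpi in hypothyroid libraries had a ratio of 0.725 with a mean over cells. Endothelial *Vegfa* was 1.01 at 5 dpi with 30 principal components and 0.928 at 14 dpi without high-depth cells, and *Vegfa* in myogenic progenitors at 14 dpi was 1.09 thinned. The cause was not tested for these. Of single ratios under the alternatives, 129 of 160 for endothelial genes by diet, 99 of 142 for sending classes, 26 of 27 for *Tek* in FAPs and 122 of 182 between days stayed inside the interval of the reported value. The smallest endothelial pools held 29 (hypothyroid day 0) and 37 cells (hypothyroid 5 dpi).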
